A study of Mus musculus with 8 samples.

Results

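The mitosis genes described here are 40 genes whose products carry a cell through mitosis: 8 kinases, 6 cyclin and anaphase-promoting complex (APC/C) genes, 7 kinesins, 6 kinetochore and checkpoint genes, 3 chromosomal passenger subunits, 5 spindle and midzone proteins, and 5 chromosome and other proliferation genes. They were chosen by name: every probe of the array whose gene name is one of the 40 was taken. All 40 genes were on the array, where 68 probes carry their names, and all 40 passed the filter on dim probes, with 56 probes, among 15401 genes and 23738 probes that passed in all. To pass, a probe had to be well above background on each of the 2 arrays of some group, so a gene seen in only 1 state also passed.

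The cells were bone marrow cells of male C57BL/6Jax mice, grown for 7 days in GM-CSF at 40 ng/mL, a growth factor that drives marrow cells toward dendritic cells (DC), the cells that present antigen to T cells. The 4 groups were miR-155 knockout (KO) cells given 100 ng/mL of the bacterial product lipopolysaccharide (LPS) for 16 h, wild-type (WT) cells given the same LPS, unstimulated KO cells, and unstimulated WT cells, with 2 arrays each. DC were sorted as CD86+ cells from the LPS cultures and as CD86- cells from the cultures without LPS, so each LPS comparison is also one between 2 sort gates. The labels give neither the age of the mice nor the kind of knockout allele, and leave unsaid whether the replicates are separate animals or cultures, so p-values measure only the spread between these arrays, which may be technical. They name the cells only as cultured bone marrow cells, and all 12 DC markers passed the filter, among them Itgax, Cd74 and H2-Ab1, which were well above background on all 8 arrays. The knocked-out gene itself could not be checked, because no probe carried a name of the miR-155 host transcript.

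Mitosis genes are expressed in a wave late in the cell cycle. Cyclin B with the kinase Cdk1 starts mitosis, Aurora and Polo kinases and kinesins build the spindle, kinetochore proteins attach chromosomes to it, and the APC/C then has cyclins and securin degraded so that sister chromatids part. Many of their promoters hold a cell cycle genes homology region (CHR), which the DREAM and MuvB complexes bind, and CCAAT boxes, which NF-Y binds. In GM-CSF cultures dividing precursors give rise to DC, and fully activated DC are known as cells that have largely stopped dividing.

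The promoter stretches shown here are those of the brightest gene of each role that fell after LPS in both genotypes and has a window in the table used, for the CHR letters TTTGAA, the related letters TTTAAA and the CCAAT box. The sequences are RefSeq promoter stretches (GRCm38.p6) from -120 to 30 around the annotated start, written 5′ to 3′ on the gene's strand, with TTTGAA and TTTAAA and CCAAT on either strand in capitals (on the opposite strand TTTGAA reads TTCAAA and CCAAT reads ATTGG).
Aurka, chr2:172370541-172370690, minus strand: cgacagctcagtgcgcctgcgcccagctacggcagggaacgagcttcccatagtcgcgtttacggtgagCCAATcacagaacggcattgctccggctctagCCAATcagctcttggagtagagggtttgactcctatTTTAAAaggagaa
Ccnb2, chr9:70421525-70421674, minus strand: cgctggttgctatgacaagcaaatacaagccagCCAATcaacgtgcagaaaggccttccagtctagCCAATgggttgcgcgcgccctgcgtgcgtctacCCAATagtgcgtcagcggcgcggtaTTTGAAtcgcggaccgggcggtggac
Kif22, chr7:127042391-127042540, minus strand: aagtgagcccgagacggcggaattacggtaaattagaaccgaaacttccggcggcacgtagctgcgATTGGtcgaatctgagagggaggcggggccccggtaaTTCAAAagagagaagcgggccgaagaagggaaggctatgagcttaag
Cenpe, chr3:135212443-135212592, plus strand: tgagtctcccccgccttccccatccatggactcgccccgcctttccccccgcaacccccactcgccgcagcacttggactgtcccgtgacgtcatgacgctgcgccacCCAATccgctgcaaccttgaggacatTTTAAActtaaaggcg
Cdca8, chr4:124936888-124937037, minus strand: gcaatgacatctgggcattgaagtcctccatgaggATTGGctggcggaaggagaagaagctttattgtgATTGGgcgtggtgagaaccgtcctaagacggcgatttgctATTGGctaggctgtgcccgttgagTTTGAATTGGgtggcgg
Prc1, chr7:80294331-80294480, plus strand: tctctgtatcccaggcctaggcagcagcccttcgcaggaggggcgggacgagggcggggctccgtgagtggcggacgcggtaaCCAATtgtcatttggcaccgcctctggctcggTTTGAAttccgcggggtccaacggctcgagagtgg
Cdca3, chr6:124830056-124830205, plus strand: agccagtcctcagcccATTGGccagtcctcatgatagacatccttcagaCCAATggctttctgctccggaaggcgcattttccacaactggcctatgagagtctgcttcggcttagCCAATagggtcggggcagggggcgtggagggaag

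The corresponding stretches of 3 members that passed the test in neither genotype are shown for comparison, with the same capitals. Bub1 is among them by its brightest probe only, since its other probe fell in both genotypes.
Bub1, chr2:127831830-127831979, minus strand: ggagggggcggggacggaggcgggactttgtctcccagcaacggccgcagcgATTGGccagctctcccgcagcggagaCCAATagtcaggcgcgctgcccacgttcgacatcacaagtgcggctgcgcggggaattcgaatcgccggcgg
Mad2l1, chr6:66535101-66535250, plus strand: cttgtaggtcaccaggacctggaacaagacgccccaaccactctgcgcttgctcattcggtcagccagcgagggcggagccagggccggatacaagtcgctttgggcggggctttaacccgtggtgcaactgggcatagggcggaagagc
Mki67, chr7:135716350-135716499, minus strand: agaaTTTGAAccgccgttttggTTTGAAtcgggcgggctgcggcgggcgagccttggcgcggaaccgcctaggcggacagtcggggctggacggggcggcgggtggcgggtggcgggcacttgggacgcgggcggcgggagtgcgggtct
Within these stretches Ccnb2, Kif22, Cdca8 and Prc1 held TTTGAA, whereas Aurka and Cenpe held TTTAAA only and Cdca3 neither. The 1 TTTGAA of Aurka, at position 33, and that of Cdca3, at 31, lay just past the printed end, and the Cenpe window held none. Ccnb2 held TTTGAA at position 5 behind 3 CCAAT boxes at -87, -54 and -21. Cdca8 held it at position 14, overlapping by its last base a CCAAT box on the other strand at position 19. In Mki67 both TTTGAA matches lay farther upstream, at -116 and -98, and the Mad2l1 window held none of these letters. The windows of Nuf2 and Nusap1, which fell in both genotypes, held none of them either. Nek2 and Birc5 also fell in both genotypes. The Nek2 window held CCAAT boxes but neither TTTGAA nor TTTAAA, and that of Birc5 held only TTTAAA, at -220.

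Over the whole windows, from 250 bases before the start to 50 after it, 33 of the 40 members had at least 1 window, 34 windows in all; Aurkb, Ccna2, Kif20a, Incenp, Tpx2, Depdc1b and Fam64a had none in the table. TTTGAA was found in 76.5% of the member windows, against 17.9% of all 32851 promoter windows of the table. The CCAAT box was found in 79.4% of member windows, against 37.4% of all windows. Both stood together in 67.6% of member windows, against 6.95% of all windows. Near the start, from -60 to 30, a range chosen for this description, TTTGAA was found in 55.9% of member windows and 4.85% of all windows. E2F letters (TTCCCGC or TTGGCGC or TTCGCGC), which mark promoters of genes of the earlier S phase wave, stood in 11.8% of member windows and 8.07% of all windows. These shares describe letters in the windows, and a match is not a measured binding site.

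**Figure D1:**
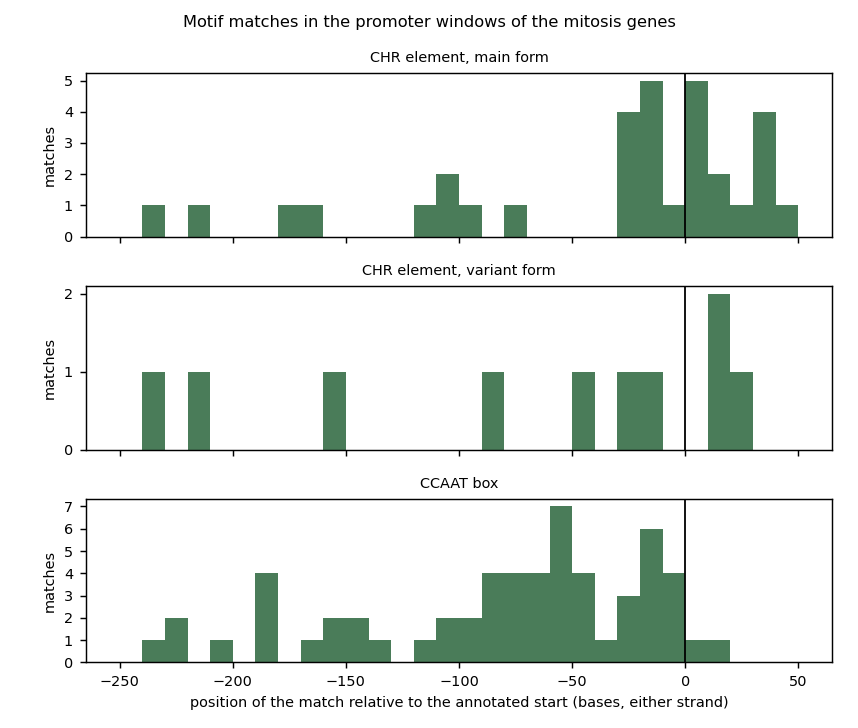
Positions of motif matches in the 34 promoter windows of the mitosis genes, on either strand, in bins of 10 bases relative to the annotated start (x axis, bases), with the number of matches on the y axis; the top panel shows TTTGAA, the middle panel TTTAAA and the bottom panel CCAAT. Matches of TTTGAA gather around the start, and those of CCAAT lie mostly upstream of it.

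The signal of each probe is given as the scaled log2 signal, the log2 intensity minus the 75th percentile of its array, so that 0 marks that percentile. An array had 50.8% to 58.3% of its spots well above background and no saturated spot, and precision is limited by having only 2 arrays a group. The arrays lay on 2 slides, which were scanned in 2 runs. Slide 1 held KO unstimulated replicate 2, WT LPS replicate 2 and both WT unstimulated arrays, and slide 2 held the other 4.

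One array stood apart for the mitosis genes before any comparison. The median member had 0.22 in KO unstimulated replicate 1, against 1.35 in KO unstimulated replicate 2, and 1.26 and 0.72 in the WT unstimulated arrays. KO unstimulated replicate 1 was below replicate 2 for 40 of 40 members, by a median of 1.30, and was the lowest of the 4 unstimulated arrays for 33 of them. Over all genes, replicate 1 of that group was below replicate 2 for 51.2% and was the lowest of the 4 arrays for 32.2%. After LPS the median member had -3.30 and -2.23 in KO cells and -1.93 and -2.37 in WT cells. KO LPS replicate 1 was the lowest of the 4 LPS arrays for 29 of 40 members, against 23.4% of all genes. Both arrays lay on slide 2, where KO unstimulated replicate 1 was the only unstimulated array. Results that rest on them are therefore given with and without them.

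**Figure D2:**
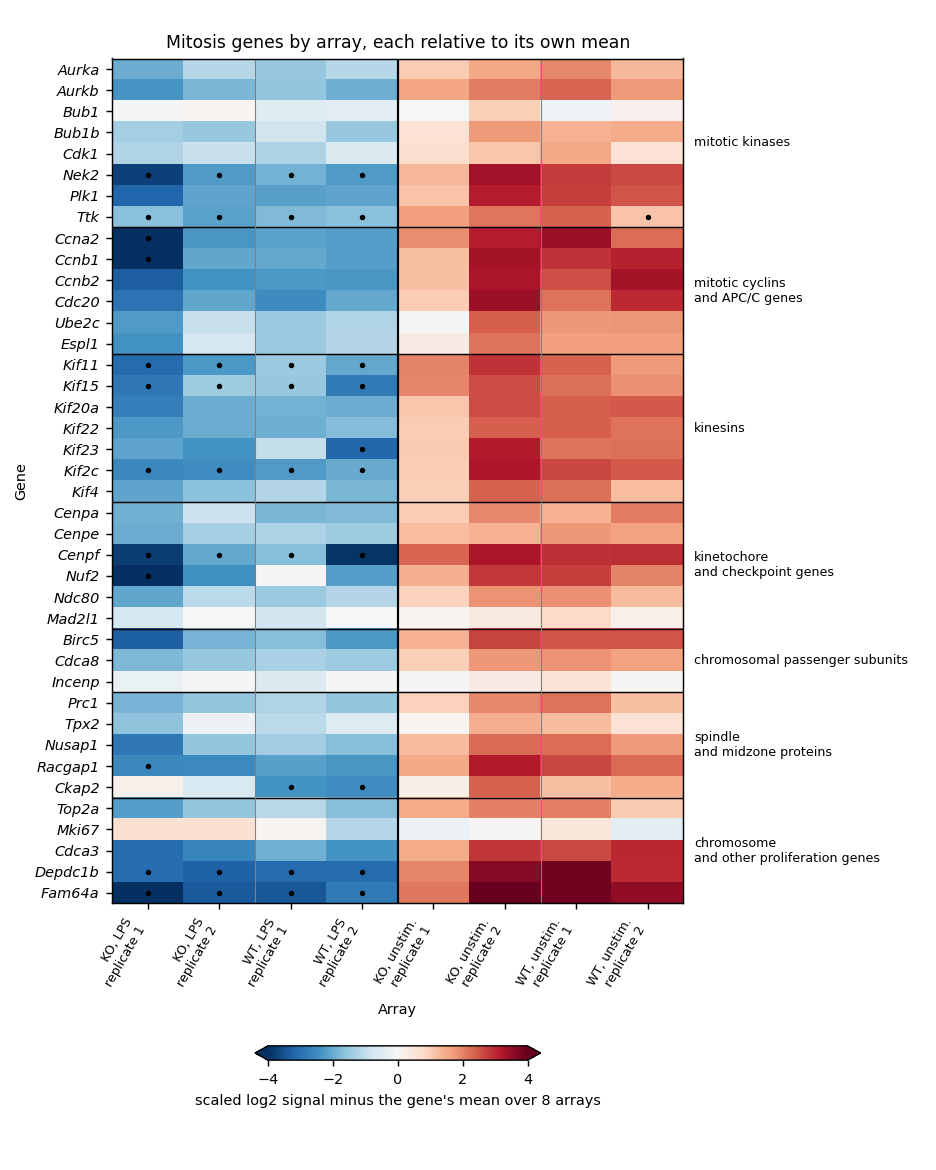
Scaled log2 signal of the 40 mitosis genes (rows, by role) on the 8 arrays (columns), each gene relative to its own mean over the arrays, with red above and blue below that mean; black dots mark signals that were not well above background. The 4 LPS arrays on the left are blue for nearly all genes, KO unstimulated replicate 1 is paler than the other 3 unstimulated arrays, and Bub1, Mad2l1, Incenp and Mki67 show little colour.

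The main comparison asked how the mitosis genes differed between LPS-activated and unstimulated cells of each genotype. In KO cells 34 of 40 members fell after LPS and 0 rose, at an adjusted p under 0.05 (limma, Benjamini-Hochberg over all genes), where 10.5% of all genes tested fell, 10.3% rose and 20.8% were called in either direction. In WT cells 35 of 40 fell and 0 rose, where 10.7% of all genes fell, 9.48% rose and 20.2% were called in either direction. The same 34 members fell in both genotypes, Ckap2 was called in WT only, and 5 members were called in neither: Bub1, Mad2l1, Incenp, Tpx2 and Mki67. The median member differed by -3.88 (log2, LPS minus unstimulated) in KO and by -3.65 in WT, while the median of all genes was 0.05 in KO and 0.00 in WT. With the members that were not well above background on either LPS array set at the bound their background allows, the medians were -3.54 in KO, with 8 such members, and -3.19 in WT, with 9. Because these are bulk samples, fewer dividing cells and less mitotic RNA per cell cannot be told apart.

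For 38 of 40 members in KO, and likewise for 38 of 40 in WT, both LPS arrays lay below both unstimulated arrays, as they did for 30.6% of all genes in KO and 32% in WT. With 2 arrays on each side the groups of only 1 member lay the other way: Mki67 was higher on both KO LPS arrays than on both KO unstimulated arrays, which was so for 33.1% of all genes. Some calls rested on the arrays used. Without KO unstimulated replicate 1, 35 members fell in KO with a median of -4.35, and without replicate 2 of that group 28 fell with a median of -3.42. Without KO LPS replicate 1, 30 fell in KO with a median of -3.67. The members whose call was lost on leaving out at least 1 single array were Cdk1, Cenpa, Espl1, Kif23, Nuf2 and Ube2c in KO and Bub1b, Cdk1, Ckap2, Espl1, Kif23, Kif4, Nuf2 and Ube2c in WT. Within slide 2, with 1 KO unstimulated array left, 7 of 40 members were called in KO (median -3.42), and within slide 1, with 1 WT LPS array left, 34 of 40 were called in WT (median -3.90); in both fits the lone array is assumed to vary like those of the other groups. The KO arrays within slide 2 are those left without KO unstimulated replicate 2, and the WT arrays within slide 1 those left without WT LPS replicate 1. With the slide as a block 31 members were called in each genotype, with medians of -3.73 in KO and -3.52 in WT.

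**Figure D3:**
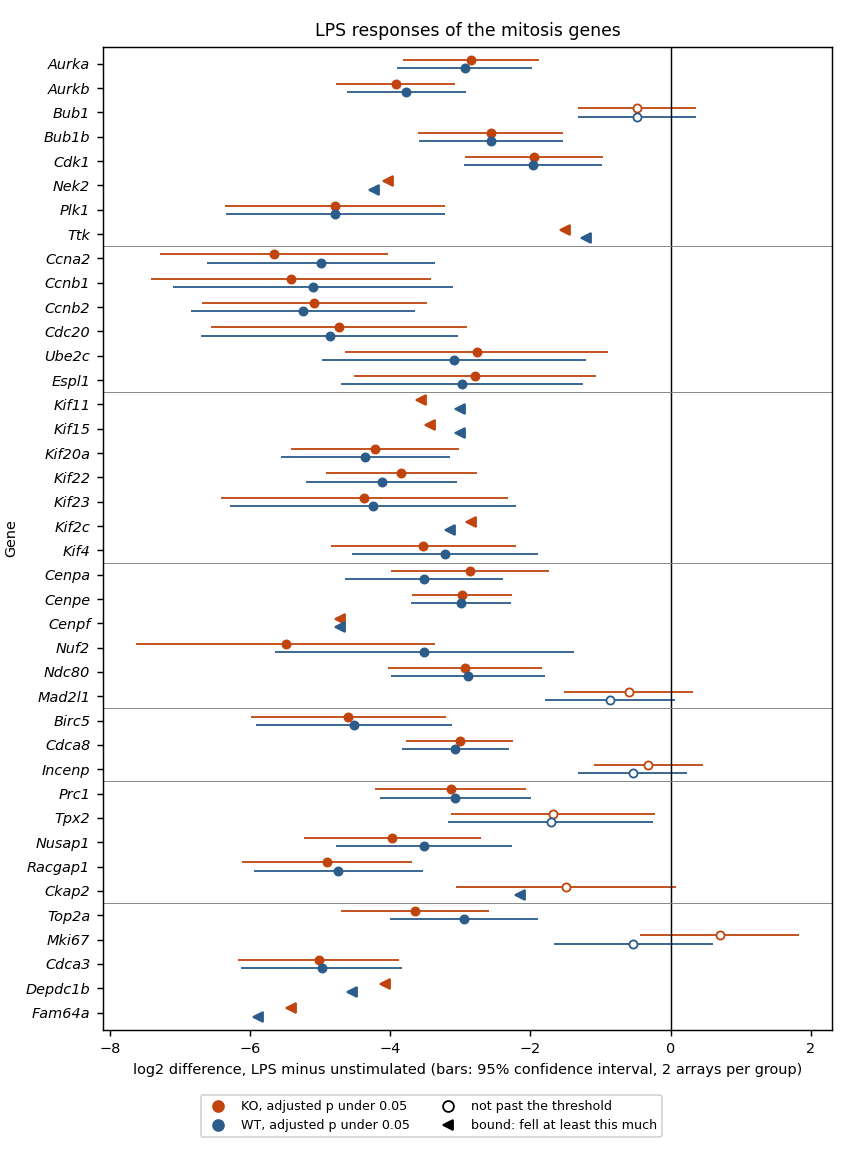
Log2 difference between LPS and unstimulated cells (x axis) for the 40 mitosis genes (y axis, by role), in KO (orange, upper of each pair) and WT (blue, lower), with 95% confidence intervals from limma and 2 arrays per group; filled points passed an adjusted p of 0.05, and triangles are bounds for genes not well above background on either LPS array. All members but 5 in WT and 6 in KO are filled or bounded, and the KO and WT intervals overlap for every pair of points that has both.

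Of the 8 mitotic kinases, 7 fell in both genotypes. Aurka, the Aurora kinase of centrosomes and spindle poles, had -0.94 and -0.08 in KO LPS cells and -0.47 and -0.08 in WT LPS cells, against 2.07 and 2.61 in KO unstimulated cells and 2.98 and 2.35 in WT unstimulated cells. Its 4 LPS arrays were all below its 4 unstimulated arrays, and it fell by 2.85 ± 0.41 in KO (SE from limma, n = 2 arrays per group, adjusted p = 0.00435) and fell by 2.94 ± 0.41 in WT (adjusted p = 0.00425). Plk1, the Polo kinase of mitotic entry and spindle assembly, fell by 4.79 ± 0.66 in KO and fell by 4.78 ± 0.66 in WT. Aurkb, the kinase of the chromosomal passenger complex, fell by 3.92 ± 0.36 in KO and fell by 3.77 ± 0.36 in WT. Cdk1, the partner of cyclin B, fell least of the kinases measured on all arrays that passed, by 1.94 ± 0.42 in KO and by 1.97 ± 0.42 in WT. The KO call of Cdk1 was lost without either KO LPS array or without KO unstimulated replicate 2, and its WT call without WT LPS replicate 1 or WT unstimulated replicate 1. Bub1b, which encodes the checkpoint kinase BubR1, fell by 2.57 ± 0.44 in KO and fell by 2.56 ± 0.44 in WT. Nek2, a centrosome kinase, and Ttk, the checkpoint kinase also called Mps1, were not well above background on any LPS array. Nek2 fell at least 16.4-fold in KO and at least 18.8-fold in WT, and Ttk at least 2.84-fold in KO and at least 2.31-fold in WT, where 1 of the 2 WT unstimulated arrays measured it. Each such bound sets the mean of the bright group against a dim group held at the lowest signal that was well above background on its arrays, or at the gene's own signal where that is higher.

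Bub1, a kinase of the spindle checkpoint, did not pass the test with its brightest probe and did with its other one. The brightest probe (chr2:127626326-127626385, mm9) had 2.07 and 2.27 in KO LPS cells and 1.63 and 1.70 in WT LPS cells, against 2.18 and 3.11 in KO unstimulated cells and 1.97 and 2.32 in WT unstimulated cells. Its differences were -0.48 ± 0.36 in KO (adjusted p = 0.397) and -0.48 ± 0.36 in WT (adjusted p = 0.391). The other probe (chr2:127626988-127627047, mm9) had -4.99 and -3.80 in KO LPS cells and -3.75 and -3.59 in WT LPS cells, against -0.45 and -0.24 in KO unstimulated cells and -0.04 and -0.59 in WT unstimulated cells. That probe fell by 4.05 in KO and by 3.36 in WT and was called in both. Both probes carry the name Bub1 in the files and lie less than a kilobase apart, and which of them follows the Bub1 mRNA was not tested.

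All 6 cyclin and APC/C genes fell in both genotypes. Ccnb2, a B-type cyclin, had -2.54 and -1.69 in KO LPS cells and -1.55 and -1.57 in WT LPS cells, against 1.94 and 4.0 in KO unstimulated cells and 3.31 and 4.06 in WT unstimulated cells. The groups did not overlap in either genotype, and Ccnb2 fell by 5.08 ± 0.68 in KO (adjusted p = 0.00325) and fell by 5.24 ± 0.68 in WT (adjusted p = 0.00324). Ccnb1, the main mitotic cyclin, fell by 5.42 ± 0.84 in KO and fell by 5.10 ± 0.84 in WT, and 1 of its 2 KO LPS arrays was not well above background. Ccna2, the cyclin of S phase and mitotic entry, fell by 5.66 ± 0.69 in KO, again with 1 of 2 LPS arrays measured, and fell by 4.99 ± 0.69 in WT. These were among the steepest falls of members measured in both states.

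Cdc20, which activates the APC/C at anaphase, fell by 4.73 ± 0.77 in KO and fell by 4.86 ± 0.77 in WT. Espl1, which encodes separase, the protease that cuts cohesin, fell by 2.79 ± 0.73 in KO (adjusted p = 0.0372) and fell by 2.97 ± 0.73 in WT (adjusted p = 0.0313). Ube2c, the ubiquitin-conjugating enzyme of the APC/C, had -1.61 and -0.26 in KO LPS cells and -0.81 and -0.53 in WT LPS cells, against 0.61 and 3.06 in KO unstimulated cells and 2.40 and 2.44 in WT unstimulated cells. Its KO unstimulated replicates lay farther apart than those of any other member. Ube2c fell by 2.77 ± 0.79 in KO (adjusted p = 0.0497) and fell by 3.09 ± 0.79 in WT (adjusted p = 0.0358), and the KO call held in only 7 of 21 alternative settings, the WT call in 15 of 21. The KO call of Espl1 held in 10 of 21 and its WT call in 15 of 21.

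The 7 kinesins, motor proteins that move along or take apart microtubules, all fell in both genotypes. Kif22, a chromosome-arm kinesin, had -1.41 and -1.08 in KO LPS cells and -1.05 and -0.84 in WT LPS cells, against 1.90 and 3.29 in KO unstimulated cells and 3.30 and 3.07 in WT unstimulated cells. Kif20a, a kinesin of the central spindle and cytokinesis, had -2.36 and -1.62 in KO LPS cells and -1.52 and -1.64 in WT LPS cells, against 1.47 and 2.98 in KO unstimulated cells and 2.75 and 2.80 in WT unstimulated cells. In both genes every LPS array lay more than 2 log2 units below every unstimulated array. Kif22 fell by 3.84 ± 0.45 in KO and fell by 4.12 ± 0.45 in WT, and Kif20a fell by 4.22 ± 0.51 in KO and fell by 4.36 ± 0.51 in WT, with adjusted p between 0.00186 and 0.00226.

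Kif23, which bundles midzone microtubules in the centralspindlin complex, fell by 4.37 ± 0.86 in KO and fell by 4.25 ± 0.86 in WT, where 1 of 2 LPS arrays measured it. Kif4, a chromokinesin, fell by 3.53 ± 0.56 in KO and fell by 3.22 ± 0.56 in WT. Kif11, Kif15 and Kif2c were not well above background on any LPS array. Kif11, which pushes spindle poles apart, fell at least 11.8-fold in KO and at least 8.02-fold in WT. Kif15, which can stand in for Kif11, fell at least 10.8-fold in KO and at least 8.02-fold in WT, and Kif2c, a microtubule depolymerase, at least 7.21-fold in KO and at least 8.89-fold in WT.

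Of the 6 kinetochore and checkpoint genes, 5 fell in both genotypes. Cenpe, the kinetochore kinesin, had -1.52 and -0.84 in KO LPS cells and -0.75 and -0.96 in WT LPS cells, against 1.71 and 1.88 in KO unstimulated cells and 2.20 and 2.08 in WT unstimulated cells. Its replicates lay close together, and it fell by 2.97 ± 0.30 in KO (adjusted p = 0.00123) and fell by 2.99 ± 0.30 in WT (adjusted p = 0.00141). Cenpa, the histone H3 variant of centromeres, had -1.60 and -0.52 in KO LPS cells and -1.50 and -1.44 in WT LPS cells, against 1.35 and 2.24 in KO unstimulated cells and 1.71 and 2.38 in WT unstimulated cells. It fell by 2.86 ± 0.48 in KO and fell by 3.52 ± 0.48 in WT. Ndc80 and Nuf2 encode partners in the complex that grips microtubules. Ndc80 fell by 2.94 ± 0.46 in KO and fell by 2.89 ± 0.46 in WT. Nuf2 fell by 5.49 ± 0.90 in KO and fell by 3.51 ± 0.90 in WT (adjusted p = 0.0356), where its LPS arrays read -1.34 and -3.44. Cenpf, a large kinetochore protein, fell at least 26.4-fold in KO and at least 26.2-fold in WT.

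Mad2l1, the checkpoint protein that holds Cdc20 back, was the kinetochore gene that did not pass. It had -0.75 and -0.06 in KO LPS cells and -0.80 and -0.08 in WT LPS cells, against 0.07 and 0.32 in KO unstimulated cells and 0.71 and 0.14 in WT unstimulated cells. Its LPS arrays lay below its unstimulated arrays in both genotypes. The differences, -0.60 ± 0.39 in KO (adjusted p = 0.333) and -0.86 ± 0.39 in WT (adjusted p = 0.167), did not pass the threshold. Its other probe was not called in either genotype.

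The chromosomal passenger complex corrects wrong attachments and directs cytokinesis. Its kinase is Aurkb, and of its 3 other subunits measured here 2 fell in both genotypes. Cdca8, which encodes borealin, had 0.61 and 0.89 in KO LPS cells and 1.13 and 0.97 in WT LPS cells, against 3.37 and 4.14 in KO unstimulated cells and 4.20 and 4.03 in WT unstimulated cells. It fell by 3.01 ± 0.32 in KO (adjusted p = 0.0015) and fell by 3.07 ± 0.32 in WT (adjusted p = 0.0016). Birc5, which encodes survivin, fell by 4.60 ± 0.59 in KO and fell by 4.52 ± 0.59 in WT.

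Incenp, the scaffold of the same complex, had 3.79 and 3.96 in KO LPS cells and 3.49 and 4.09 in WT LPS cells, against 4.0 and 4.38 in KO unstimulated cells and 4.58 and 4.08 in WT unstimulated cells. In WT the groups overlapped, and the differences were -0.32 ± 0.33 in KO (adjusted p = 0.548) and -0.54 ± 0.33 in WT (adjusted p = 0.294). The 95% intervals, from -1.10 to 0.47 in KO and from -1.32 to 0.24 in WT, do not reach the size of the differences of Cdca8 or Birc5.

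Among the 5 spindle and midzone proteins, 3 fell in both genotypes. Prc1, which crosslinks midzone microtubules, had -0.91 and -0.65 in KO LPS cells and -0.26 and -0.64 in WT LPS cells, against 1.86 and 2.86 in KO unstimulated cells and 3.10 and 2.14 in WT unstimulated cells. It fell by 3.14 ± 0.45 in KO and fell by 3.07 ± 0.45 in WT. Nusap1, a microtubule-bundling protein, fell by 3.97 ± 0.53 in KO and fell by 3.52 ± 0.53 in WT, and Racgap1, the other centralspindlin subunit, fell by 4.90 ± 0.51 in KO, where 1 of its LPS arrays was dim, and fell by 4.74 ± 0.51 in WT.

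Tpx2, which activates Aurora A at the spindle, had -1.57 and -0.20 in KO LPS cells and -1.05 and -0.48 in WT LPS cells, against 0.12 and 1.47 in KO unstimulated cells and 1.30 and 0.60 in WT unstimulated cells. The groups did not overlap, but the differences of -1.68 ± 0.62 in KO (adjusted p = 0.103) and -1.71 ± 0.62 in WT (adjusted p = 0.0983) did not pass, under the settings reported or any alternative.

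Ckap2, a microtubule-associated spindle protein, was called in WT only. Its 2 probes had nearly equal means over all arrays, -4.353 and -4.354, and the first of these stood for the gene. That first probe (chr8:23285636-23286278, mm9) had -4.15 and -4.95 in KO LPS cells and -6.74 and -6.84 in WT LPS cells, against -4.13 and -1.99 in KO unstimulated cells and -3.16 and -2.86 in WT unstimulated cells. It was not well above background on either WT LPS array and fell at least 4.42-fold in WT (adjusted p = 0.0101), whereas the KO difference was -1.50 ± 0.66 (adjusted p = 0.163). Its other probe (chr8:23279384-23279443, mm9) had -7.06 and -6.15 in KO LPS cells and -6.40 and -7.13 in WT LPS cells, against -3.0 and -1.28 in KO unstimulated cells and -1.98 and -1.83 in WT unstimulated cells. That other probe was the brighter of the 2 on every unstimulated array. It was called in both, with falls of 4.46 in KO and 4.86 in WT, so the genotypes differed in call only with the first probe.

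Of the 5 chromosome and other proliferation genes, 4 fell in both genotypes. Cdca3, an adaptor that helps a cell enter mitosis, had -2.79 and -2.32 in KO LPS cells and -1.62 and -2.09 in WT LPS cells, against 1.77 and 3.16 in KO unstimulated cells and 2.94 and 3.30 in WT unstimulated cells. It fell by 5.02 ± 0.48 in KO (adjusted p = 0.00104) and fell by 4.98 ± 0.48 in WT (adjusted p = 0.00126). Top2a, the topoisomerase that untangles sister chromatids, fell by 3.65 ± 0.45 in KO and fell by 2.94 ± 0.45 in WT. Depdc1b fell at least 16.8-fold in KO and at least 23.3-fold in WT, and Fam64a at least 42.7-fold in KO and at least 59-fold in WT, the highest bound of any member in each genotype.

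Mki67, whose protein Ki-67 coats mitotic chromosomes and is used as a marker of proliferating cells, was called in neither genotype. It had 3.89 and 3.88 in KO LPS cells and 3.37 and 2.12 in WT LPS cells, against 3.04 and 3.32 in KO unstimulated cells and 3.72 and 2.84 in WT unstimulated cells. The KO LPS arrays lay above the KO unstimulated arrays, and the WT arrays overlapped. The differences were 0.70 ± 0.48 in KO (adjusted p = 0.352, interval from -0.43 to 1.83) and -0.53 ± 0.48 in WT (adjusted p = 0.478, interval from -1.66 to 0.60). A further Mki67 probe behaved likewise, with differences of 0.38 in KO and -0.54 in WT, and was called in neither.

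Where a gene had several probes, they mostly moved together. Of the 14 members with more than 1 probe past the filter, no member had probes called in opposite directions. Only Bub1, Ckap2 and Kif15 had probes of which 1 was called and another was not, Bub1 in both genotypes, Ckap2 in KO and Kif15 in WT, where its other probe differed by -1.45. In Ccnb1, with 3 probes, the falls ranged between 4.33 and 5.42 in KO and between 4.0 and 5.10 in WT, and in Cenpe, also with 3, between 2.83 and 3.58 in KO and between 2.83 and 4.13 in WT.

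Markers of other cell types were also measured, since the sorted cells could hold other cells. The summed linear signal (relative to the 75th percentile of the array) of 7 markers of granulocyte and monocyte precursors, of which 4 passed, lay between 0.533 and 0.559 on the KO LPS arrays and between 0.510 and 0.550 on the WT LPS arrays, against 1.86 to 1.99 on the KO unstimulated and 1.67 to 2.0 on the WT unstimulated arrays. Elane, Prtn3 and Ms4a3 were not well above background on any array, whereas Ctsg was on 4, Mpo on 5, Kit on 7 and Cd34 on all 8. Of these 4, Kit rose in both genotypes, while 1 fell in KO and 2 fell in WT. The median difference of the 4 was -1.86 in KO and -1.83 in WT. Mast cell and basophil markers, 7 of 8 passed, summed to between 5.82 and 115 on the 4 LPS arrays, nearly all of it Hdc, against 0.931 to 3.62 on the unstimulated arrays. Apart from Hdc, the only one that rose, 4 of the 7 fell in each genotype, Mcpt8, Prss34, Cpa3 and Cd200r3, and the list's median difference was -3.26 in KO and -3.49 in WT. Neutrophil markers, 6 of 7 passed, summed to between 57.7 and 111 after LPS, nearly all of the rise being Lcn2, against 14.7 to 38.9 unstimulated. Of the 6, 2 rose in each genotype, and 1 fell in KO and 0 in WT. The list's median difference was only 0.40 in KO and -0.12 in WT. Stromal markers, 5 of 7 passed, summed to between 4.37 and 14 after LPS, against 0.296 to 0.704 unstimulated, with Col3a1 dim on every array. Macrophage markers, 8 of 8 passed, summed to between 120 and 271 after LPS, against 105 to 148 unstimulated. That sum was carried by Emr1, which rose in KO, and Fcgr1, which rose in WT, whereas 5 of the 8, C1qa, C1qb, C1qc, Mrc1 and Cd163, fell in both genotypes, with list medians of -2.19 in KO and -2.49 in WT. Erythroid markers, 3 of 7 passed, summed to between 0.571 and 7.87, against 0.239 to 0.411, with Klf1, Alas2 and Gata1 among those dim throughout. The high sums, 6.51 in KO and 7.87 in WT, were those of the replicate 1 LPS arrays and mostly Hbb-b1. The replicate 2 LPS arrays had 0.824 in KO and 0.571 in WT. B cell markers, 5 of 8 passed, summed to between 0.290 and 0.509, against 0.959 to 5.30, mostly Ighm, with Cd79a, Ms4a1 and Pax5 dim throughout. NK cell markers, 2 of 6 passed, summed to between 0.0527 and 0.0716, against 0.216 to 0.358, with Gzma, Prf1 and Eomes dim throughout. T cell markers, 4 of 6 passed, summed to between 0.241 and 0.346, against 0.304 to 0.394, with Cd3d and Cd3g dim throughout. DC markers, 12 of 12 passed, summed to between 1099 and 1585, against 1039 to 1459. The part of these changes of marker level in the fall of the mitosis genes was not tested.

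Other genes of the cell cycle were set beside the members, list by list. Over all genes tested, 10.5% fell and 10.3% rose in KO, and 10.7% fell and 9.48% rose in WT. A gene given a fitted difference in 1 genotype only was not among the 2 brightest called of its list in the other. Of 58 further mitosis genes tested, 38 fell and 2 rose in KO, and 41 fell and 1 rose in WT, with medians of -2.62 in KO and -2.58 in WT. The risen genes went against the rest of their list. Pttg1, which encodes securin, the inhibitor of separase, rose by 1.90 ± 0.32 in KO (adjusted p = 0.0082) and by 1.52 ± 0.32 in WT (adjusted p = 0.019), while Espl1, its target, fell. Zwint, a kinetochore protein, rose by 1.52 ± 0.33 in KO (adjusted p = 0.0204), and its WT difference was 1.13 ± 0.33 (adjusted p = 0.055). Cks1b, a small Cdk-binding protein, fell by 1.67 ± 0.41 in WT. Cks1b was also lower in KO cells, with 2.05 and 2.76 after LPS against 3.82 and 3.47 unstimulated.

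Of 15 condensin and cohesin genes, which compact chromosomes and hold sister chromatids together, 6 fell in KO and 8 in WT, with 0 risen. Ncapd2, a condensin subunit, fell by 4.11 ± 0.49 in KO and fell by 3.97 ± 0.49 in WT. Cdca5, the cohesin protector sororin, fell by 3.17 ± 0.51 in KO. Cdca5 was also lower in WT cells, with -0.94 and -0.33 after LPS against 3.03 and 2.10 unstimulated. Ncaph2, of condensin II, fell by 1.0 ± 0.28 in WT (adjusted p = 0.0498). Ncaph2 was also lower in KO cells, with 2.05 and 2.55 after LPS against 3.01 and 3.26 unstimulated. None of 14 APC/C genes, core subunits together with the coactivator Fzr1 and the ubiquitin-conjugating enzyme Ube2s, was called in either genotype, and their differences lay between -0.41 (Anapc5) and 0.73 (Fzr1) in KO and between -0.51 (Anapc5) and 0.82 (Cdc27) in WT.

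DNA replication genes act in S phase, ahead of mitosis. Of 50 tested, 26 fell in KO and 20 in WT, and 0 rose, with medians of -1.75 in KO and -1.63 in WT. Gmnn, which encodes geminin, the inhibitor of relicensing, fell by 2.05 ± 0.36 in KO and fell by 2.28 ± 0.36 in WT, and Rfc2, of the clamp loader, fell by 1.03 ± 0.26 in KO and fell by 1.24 ± 0.26 in WT. Of 12 G1 and G1/S regulators, 4 fell in KO and 4 in WT, among them Cdk4, by 1.55 ± 0.33 in KO and by 1.46 ± 0.33 in WT. Myc fell by 4.06 ± 0.80 in KO. Myc was also lower in WT cells, with -2.62 and -2.63 after LPS against 2.25 and -0.09 unstimulated. Ccnd2, the D-type cyclin 2, was the only regulator in this list to rise, by 5.51 ± 1.32 in WT (adjusted p = 0.0293), and its KO difference was 4.55 ± 1.32 (adjusted p = 0.0525).

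Of 21 E2F, DREAM and mitotic transcription factors, 4 fell and 1 rose in each genotype, with medians of -0.37 in KO and -0.32 in WT. These counts are near the share of all genes called in either direction, 20.8% in KO and 20.2% in WT. E2f2, an activator of S phase genes, fell by 6.65 ± 0.48 in KO and fell by 6.03 ± 0.48 in WT. E2f5, a repressor E2F, rose by 2.49 ± 0.35 in KO and by 2.58 ± 0.35 in WT. Foxm1, the activator of mitosis genes, named here after its values were seen, fell by 3.94 ± 0.49 in KO (adjusted p = 0.00253) and fell by 3.68 ± 0.49 in WT (adjusted p = 0.00368). Of 17 CDK inhibitors and p53 target genes, 4 fell and 3 rose in each genotype. Gadd45b, a stress-response gene, rose by 5.77 ± 0.61 in KO and by 4.91 ± 0.61 in WT, the CDK inhibitor Cdkn2b by 4.10 ± 0.81 in KO and by 3.59 ± 0.81 in WT, and Mdm2, the ubiquitin ligase of p53, by 1.4 ± 0.36 in KO and by 1.39 ± 0.36 in WT. Ccng1, a cyclin induced by p53, fell by 1.44 ± 0.32 in KO and fell by 1.23 ± 0.32 in WT. Differences between these lists and the members were not tested.

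**Figure D4:**
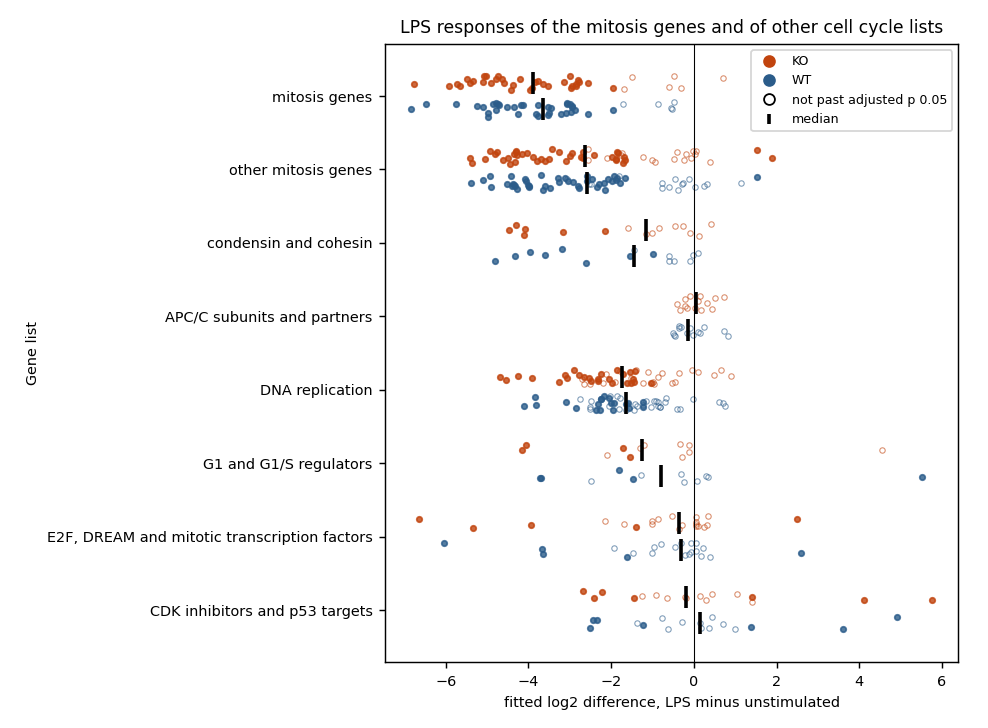
Fitted log2 difference between LPS and unstimulated cells (x axis) of each gene tested, by list (y axis), in KO (orange, upper) and WT (blue, lower); filled points passed an adjusted p of 0.05, and black bars are medians, -3.88 in KO and -3.65 in WT for the mitosis genes. The further mitosis genes follow with -2.62 and -2.58, while the medians of the APC/C subunits and partners lie near 0.

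The other comparison asked whether the mitosis genes differed between KO and WT cells. None of the 40 members was called in any genotype comparison with limma. After LPS 0 of 40 were called (0.026% of all genes were), and 3 had an unadjusted p under 0.05, against 187 of all 15400 genes. In unstimulated cells 0 of 40 were called (0.24% of all genes were), and 0 had an unadjusted p under 0.05, against 395 of all 15401 genes. For the difference of the LPS responses 0 of 40 were called (0.0455% of all genes were, 0.039% higher and 0.00649% lower). There 1 member had an unadjusted p under 0.05, against 218 of all 15400 genes. The lowest adjusted p of a member was 1.0 after rounding in each of these comparisons. The confidence intervals were wide, with a median half-width of 1.23 on the log2 scale for KO minus WT, between 0.72 and 2.13. Differences of this size or smaller could thus go undetected with 2 arrays per group. The intervals are not adjusted over all genes, so larger differences could be missed as well. After LPS, KO minus WT was 2.24 for Ckap2 and -2.22 for Nuf2, and neither was called.

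The 3 members with the lowest unadjusted p after LPS were Ckap2, Nuf2 and Mki67. For Ckap2, KO minus WT was 2.24 ± 0.66 (unadjusted p = 0.0121 from limma), or at least 1.52-fold higher in KO given the dim WT arrays, and its LPS responses differed by 2.28. Its other probe, whose values are given above, lay between -7.13 and -6.15 on all 4 LPS arrays, with the genotypes overlapping. For Nuf2, KO minus WT was -2.22 ± 0.90 (unadjusted p = 0.0432 from limma), with -5.53 and -3.70 in KO LPS cells and -1.34 and -3.44 in WT LPS cells. For Mki67 it was 1.14 ± 0.48 (unadjusted p = 0.0494 from limma). No such difference passed the correction over all genes.

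After LPS the median member was -0.30 (KO minus WT), with 33 of 40 below 0, and both KO arrays lay below both WT arrays for 10 members and above them for 3, against 9.67% and 11.5% of all genes. Without KO LPS replicate 1 the median was -0.02 and without KO LPS replicate 2 it was -0.68. Within slide 2 it was -0.41, and with the slide as a block -0.04. In unstimulated cells the median member was -0.26, with 35 of 40 below 0, and both KO arrays lay below both WT arrays for 1 member and above them for 0, against 12.8% and 8.08% of all genes. Without KO unstimulated replicate 1 that median was 0.33, and within slide 1, which leaves the same unstimulated arrays, it is the same value. Without KO unstimulated replicate 2 the median was -0.84, and with the slide as a block it was -0.000733. The sign of the unstimulated median thus changed with 1 array. The LPS responses differed by a median of 0.01 (KO minus WT), with 20 members above 0 and 20 below.

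DNA replication genes, summed over 50 genes on the linear scale relative to the 75th percentile, gave 314 and 230 on the KO unstimulated arrays, against 454 and 193 on the WT unstimulated arrays, so that this sum did not place KO unstimulated replicate 1 lowest as the mitosis genes did. No gene of the further cell cycle lists was called between the genotypes in either state.

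**Figure D5:**
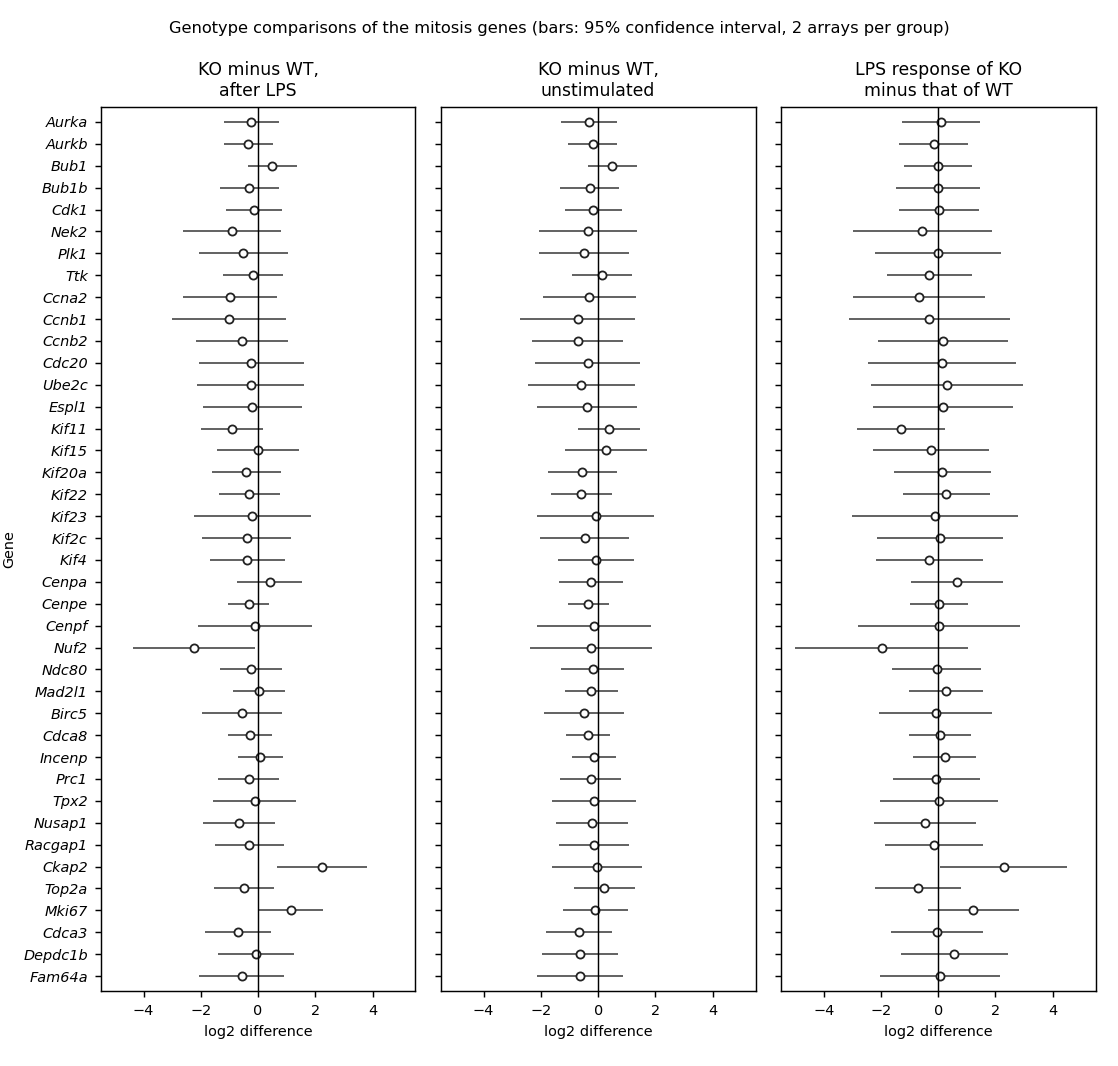
Log2 differences of the 40 mitosis genes (y axis) for KO minus WT after LPS (left), KO minus WT in unstimulated cells (middle) and the LPS response of KO minus that of WT (right), with 95% confidence intervals from limma and 2 arrays per group. No member passed an adjusted p of 0.05, and the intervals of Nuf2, Ckap2 and Mki67 in the left panel and of Ckap2 in the right panel lie to 1 side of 0.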

How the data were processed

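Each of 8 samples was read on an Agilent array in 1 colour, with 45018 spots, of which 1639 were controls. Per the file headers, the deposited intensity values are processed signals from Agilent Feature Extraction 10.5.1.1, on a linear scale, with mm9 probe coordinates. The deposited spot flags are another unit, 0 or 1. The deposited log2 values of the series equal the log2 processed signal minus a constant per array, by comparison with the scanner values, and served as an alternative.

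Control spots and spots marked as outliers (120 to 174 per array) were left out, and each array's log2 signals were lowered by its own 75th percentile. The brightest probe past the filter stood for each gene name. A model with 4 group means was fitted (limma 3.58.1, R 4.3.3, data.table version 1.17.8) on 8 arrays (4 residual and 2.88 prior degrees of freedom), with two-sided p adjusted by Benjamini-Hochberg over all genes of each of 5 comparisons. The procedure was tested on simulated data. Figures used matplotlib 3.10.9.

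Members, roles, pathway and marker lists and tests were chosen with earlier results of these data known. Values by array are given for the 2 brightest members of each role and every member not called in both LPS responses. The 2 brightest called genes of each list, and any called against its list, are named. Alternatives covered scaling, filter, probe choice, slide, replicate block, threshold and each array left out.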

Additional observations from a re-analysis of the deposited data

How the results depend on the processing

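No member's LPS call reversed under any of 21 alternatives. Limited to probes well above background on all 8 arrays, 26 members remained to be tested, of which 21 fell in KO and 21 in WT, with medians of -2.99 in KO and -3.07 in WT. Within slide 2 alone, 7 members fell in KO. The next 2 alternatives were chosen after seeing the data. Background subtraction with an offset of 50 gave medians of -2.65 in KO and -2.74 in WT, and the normexp correction without KO LPS replicate 2 gave -2.75 in KO and -2.73 in WT, with 23 members called in KO and 33 in WT. The planned normexp correction with all 8 arrays could not be fitted: it put the lower quartile of KO LPS replicate 2 at 1838, against 62.4 to 96.9 on the others. Leaving out each array in turn, 28 to 35 members fell in KO (28 without KO unstimulated replicate 2) with medians of -4.35 to -3.42, and 28 to 35 in WT (28 without WT LPS replicate 2) with medians of -4.00 to -3.48. The cause of these shifts was not tested. In both genotype comparisons and in the difference of LPS responses 0 members were called under every alternative run. That difference had medians between -0.63 and 0.53 with an array left out.

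Over all genes, 3201 were called in KO and 3105 in WT, against 445 in KO within slide 2, 1533 in WT within slide 1, 2351 in KO and 2175 in WT with the slide as a block, and 1341 in KO and 1179 in WT at an adjusted p under 0.01. The labels do not say that same-numbered replicates share a culture or day, and 2 numbers are too few to settle it: the correlations of their deviations were all above 0, between 0.01 and 0.69. The replicate block left 34 members called in KO and 35 in WT, with 4184 and 4155 genes called over all. The median of all genes, 0.05 in KO and 0.00 in WT, was -0.14 in KO and -0.11 in WT with median scaling, and no filter put it at 0.12 in KO and -0.36 in WT.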
